A study of Mus musculus with 31 samples.

Results

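The genes described here are the 10 members of 3 families of postsynaptic scaffold proteins, Shank1, Shank2, Shank3, Dlgap1, Dlgap2, Dlgap3, Dlgap4, Dlg2, Dlg3 and Dlg4, out of 19902 genes with a named probe on the array. They were listed by name and found through the RefSeq accession that the array files give for each probe, and all their probes were followed, 17 in number. The postsynaptic density is a protein layer beneath the membrane of excitatory synapses, on the side that receives glutamate. Dlg proteins lie closest to the membrane, where they bind NMDA receptors and cell adhesion proteins, Dlgap proteins bind the guanylate kinase domain of the Dlg proteins, and Shank proteins bind the Dlgap proteins and link them to Homer and to actin. These proteins are known from neurons of the forebrain, where excitatory synapses are being formed in the first postnatal weeks, and magnesium ions block the channel of the NMDA receptor that the Dlg proteins anchor.

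The study asked how magnesium sulfate (MgSO4), which protects the immature brain, changes transcription in the brain of newborn mice with and without hypoxia-ischemia (HI). RNA was pooled from 6 brain hemispheres of 5-day-old NMRI mice (olfactory bulb removed, tissue in front of the colliculus), and a Cy5 pool and a Cy3 pool were hybridized to each of 31 Agilent arrays, with no dye exchange. Experiment 1 set MgSO4 (600 mg/kg, Cy5) against control (Cy3) at 3 h (4 arrays), 6 h (7), 12 h (4) and 24 h (4). Experiment 3 set HI (ligature of the right carotid artery and breathing of 8% oxygen for 40 min, Cy5) against control (Cy3) at 3 h and 12 h, with 3 arrays each. In Experiment 2, with 3 arrays at each of the same times, the titles read as MgSO4-treated HI mice (Cy5) against MgSO4-treated naive mice (Cy3), the series design and the methods as HI mice given MgSO4 (MgHI, Cy5) against HI mice given saline (Cy3), and the published figures place MgHI in Cy3. The direction of Experiment 2 is not settled, and its values are given by channel, Cy5 over Cy3, so that every sign below for Experiment 2 turns if the channels are read the other way. The labels give a subcutaneous injection in PBS with PBS controls, the methods an intraperitoneal injection with untreated controls, and a treatment label of the Cy5 pools in Experiment 3 names MgSO4 against their titles, so these pools were taken as HI without MgSO4. The mice of a time point came from at least 2 litters, with sexes matched. Each array holds pooled animals and was treated as 1 independent replicate, so the p-values measure the spread between arrays. The methods speak of 3 independent samples per time point, fewer than the 4 or 7 arrays of Experiment 1, and which arrays, if any, share a pool is not given in the sources used here. The closest arrays at 6 h, replicates 2 and 6 of slide 4, correlated at r = 0.86, and without either of them 0 scaffold genes were called at 6 h, as with all 7 arrays. Since 0 were called with all 7, this cannot show what a shared pool would do. The subsets of 6 h arrays described below hold both replicates, and there their effect was not tested. In a pool of whole forebrain tissue, fewer cells of a type and less RNA per cell cannot be told apart.

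The arrays lay on 9 slides, here numbered 1 to 9, and between 45.2% and 70.2% of the spots were well above background in a channel, with no saturated spot. Log2 ratios of the processed signals, Cy5 over Cy3, were tested against 0 in each group with limma, over the 17642 to 19269 probes that stood well above background in 1 channel or both on 66.7% or more of the arrays. A probe counts as called where its change was 1.5-fold or larger with a p under 0.05 after Benjamini-Hochberg adjustment. Each gene is given by its brightest probe unless another probe is named. Among the 6 h arrays, the ratios over the tested probes correlated between -0.42 and 0.86 from array to array, with the lowest values between the arrays of slide 5 and those of slides 3 and 4. Since the methods state the dyes, the direction was kept. Neuron markers, 6 of 6, and oligodendrocyte lineage markers, 6 of 6, passed the background filter in all 8 groups.

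Of the 10 genes, 9 could be followed. Shank2 had a single probe, which was well above background on 2 of 31 arrays in Cy5 and on 4 of 31 in Cy3 and was tested in no group. The second probe of Shank3 (A_55_P2089858) was likewise too dim for any group, and the second probe of Dlg2 (A_55_P2072238) was tested in 6 of the 8 groups. Shank3 was measured most often, since its probe A_51_P115626 is printed at 10 spots on each array.

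RefSeq promoter windows, each of 300 bases around the transcription start and most of it upstream (GRCm38.p6), were at hand for 7 of the 10 members, 13 windows in all. The 3 shown here hold between 47.7% and 81.0% G or C. In the windows of Shank3 (chr15:89499358-89499657, strand +), Dlgap3 (chr4:127172630-127172929, strand +) and Dlgap4 (chr2:156720715-156721014, strand +), capitals mark a match to one of 4 motifs searched on both strands, the CRE (TGACGTCA), the NRF1 core (GCGCATGC), the CAAT box (CCAAT) and the TATA box (TATAAA), which do not overlap one another here.
Shank3: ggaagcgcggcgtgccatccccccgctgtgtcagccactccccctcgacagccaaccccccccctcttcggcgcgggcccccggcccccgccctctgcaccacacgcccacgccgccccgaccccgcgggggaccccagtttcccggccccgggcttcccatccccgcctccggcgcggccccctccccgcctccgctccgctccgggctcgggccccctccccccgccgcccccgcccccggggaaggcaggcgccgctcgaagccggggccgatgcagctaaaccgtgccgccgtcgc
Dlgap3: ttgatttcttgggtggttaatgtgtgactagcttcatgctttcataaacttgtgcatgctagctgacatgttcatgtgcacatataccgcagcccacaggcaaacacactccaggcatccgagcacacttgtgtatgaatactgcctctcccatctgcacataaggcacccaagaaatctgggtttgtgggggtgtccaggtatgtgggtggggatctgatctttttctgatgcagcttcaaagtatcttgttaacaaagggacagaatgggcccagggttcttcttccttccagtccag
Dlgap4: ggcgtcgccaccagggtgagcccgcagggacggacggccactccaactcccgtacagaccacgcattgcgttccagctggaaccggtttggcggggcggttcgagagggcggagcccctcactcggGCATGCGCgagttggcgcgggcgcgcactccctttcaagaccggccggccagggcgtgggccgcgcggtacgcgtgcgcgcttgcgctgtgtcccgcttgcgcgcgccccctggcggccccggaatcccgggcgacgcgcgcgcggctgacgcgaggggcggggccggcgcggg
The Shank3 window holds 81.0% G or C and 40 CpG dinucleotides, the Dlgap4 window 76.3% and 50, and the Dlgap3 window 47.7% and 2, against medians of 52.7% and 7 over all 32851 promoter windows. Of the 13 member windows, 0 held the CRE (1.79% of all windows), 1 the NRF1 core (2.71%), 3 the CAAT box (37.41%) and 1 the TATA box (13.62%). The only capitals above are the NRF1 core of Dlgap4, read on the other strand. Shank3 and Dlgap3, whose windows differ this far, had the most alike ratios of all member pairs over the arrays (Pearson r = 0.935, n = 31).

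With MgSO4 alone the ratios were most uneven at 6 h, where those of the scaffold genes differed by the slide an array lay on. Slide and pool cannot be told apart here. Shank3, the scaffold that ties the deeper layer of the density to actin, had a log2 ratio with its lowest array at -1.40, the median at -0.73 and the highest at 0.48. On 5 of the 7 arrays it was below 0, and the 2 arrays above 0 were both of slide 5. The mean was -0.64 ± 0.73 (SD, n = 7; SE 0.24), which did not pass the test (limma, adjusted p = 0.314, unadjusted p = 0.0249). By slide, Shank3 averaged -0.93 on the 2 arrays of slide 3, -1.27 on the 2 of slide 4, -0.73 on the 1 of slide 6 and 0.33 on the 2 of slide 5. The spread between arrays was far beyond that between spots of an array: the SD over the 7 to 10 unflagged Shank3 spots ranged from 0.026 to 0.219 over the 31 arrays, with a median of 0.076, against 0.73 between the 6 h arrays.

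**Figure D1:**
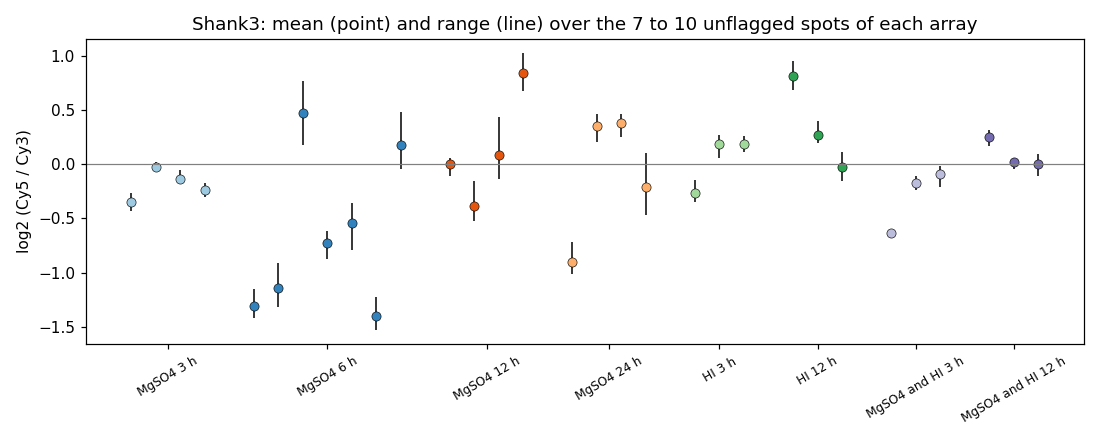
Shank3 log2 ratio of Cy5 to Cy3 on each of the 31 arrays (vertical axis), arranged by group (horizontal axis). Points are means over 7 to 10 unflagged spots of probe A_51_P115626 and bars run from the lowest to the highest spot. At 6 h the arrays lie between -1.40 and 0.48, with spot ranges that are short beside the distance between arrays.

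The 4 Dlgap genes, whose proteins join the Dlg layer to the Shank layer, split the 6 h arrays in the same places. Dlgap3 ran from -1.37 through a median of -0.85 to 1.24, with means of -1.32 on slide 4 and 1.00 on slide 5. Its mean over all 7 arrays was -0.39 ± 1.02 (adjusted p = 0.622). Dlgap1 had a mean of -0.25 ± 0.84 (adjusted p = 0.717) and Dlgap2 of -0.32 ± 0.68 (adjusted p = 0.559). Dlgap4, which had the narrowest spread of the family, had -0.14 ± 0.29 and still lay above 0 on the 2 arrays of slide 5 alone.

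The Dlg genes, which code for the proteins nearest the receptors, were also above 0 on slide 5. Dlg2 ran from -0.93 through -0.36 to 1.17 (mean -0.17 ± 0.80, adjusted p = 0.811). Dlg3 averaged -0.04 ± 0.51 and Dlg4 -0.27 ± 0.48. Shank1 was the member that followed the slides least: its brightest probe had 3 of 7 arrays above 0 and a mean of -0.15 ± 0.42, and its probe A_55_P2062187 was below 0 on 6 of 7 arrays, both of slide 5 included (mean -0.41 ± 0.41, unadjusted p = 0.0211, adjusted p = 0.302).

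In the test at 6 h, 0 of 15 member probes were called, where 0.0283% of all tested probes were. At an unadjusted p under 0.05, 2 of the 15 passed, both lower, against 13.2% of all probes, and the methods' t-test called 0 members at 1.5-fold with or without adjustment. All 9 genes had means below 0, with a median over genes of -0.25, while the median over all tested probes was -0.00 and 49.24% were above 0. Without the 2 arrays of slide 5, 5 of the 9 genes were called lower (Shank3 -1.02, Dlgap3 -0.95, Dlgap2 -0.69, Dlgap1 -0.65 and Dlg2 -0.61), together with 1500 probes in all. With the 3 arrays whose mean matches the published values (replicates 1, 2 and 6, of slides 3 and 4), 6 of 9 were called, among 2779 probes. Leaving out arrays by their place on a slide also leaves out those with the highest values, so these counts describe subsets and are no separate test of the genes.

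**Figure D2:**
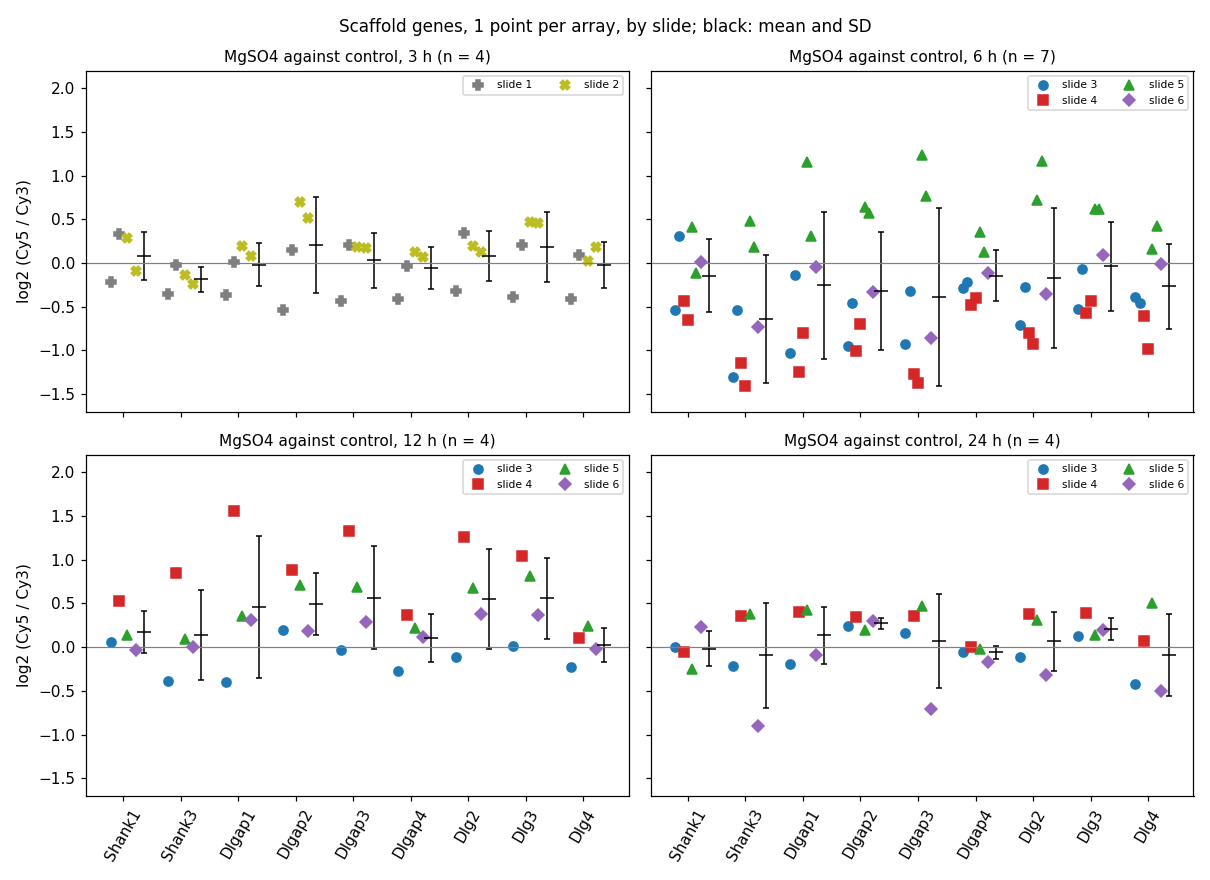
Log2 ratio of MgSO4 (Cy5) to control (Cy3) for the 9 measured scaffold genes (brightest probe), 1 panel per time. Points are arrays, coloured by slide, and black bars are the mean ± SD. At 6 h the 2 points of slide 5 stand above 0 for 8 of the 9 genes and those of slide 4 lie below 0 for all 9, and at 12 h the array of slide 4 is the highest for 8 of the 9.

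At 3 h the ratios were small and mixed. Dlg2 had log2 ratios of -0.32, 0.34, 0.20 and 0.12 and Dlgap2 of -0.54, 0.15, 0.70 and 0.52. Replicate 1 was the lowest array for all 9 genes, which gave it a median over the 9 genes of -0.39 where the other 3 arrays had medians above 0. Shank3 was below 0 on 4 of 4 arrays (-0.35, -0.02, -0.13 and -0.24) with a mean of -0.19 ± 0.14 (limma, adjusted p = 0.561). No member probe of 15 was called (0% of all probes), 1 passed an unadjusted p under 0.05, the Shank1 probe A_55_P2062187 (mean 0.32 ± 0.22, adjusted p = 0.497), against 9.02% of all probes, and the methods' t-test called 0. The probe of Dlgap1, A_55_P1959728, which carries another accession than its other 2 probes, read 3.21 on replicate 3 against -0.36, -0.04 and 0.36 on the others, a value that the other probes of Dlgap1 (0.20 and 0.48) on that array did not share.

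At 12 h the means of all 9 genes lay above 0. Dlg3, the Dlg protein known as the main one of young synapses, had log2 ratios of 0.37, 0.01, 0.81 and 1.04. Its mean was 0.56 ± 0.46 (SE 0.19, limma, adjusted p = 0.305, unadjusted p = 0.0224). Dlgap2 was above 0 on 4 of 4 arrays at 0.19, 0.19, 0.71 and 0.88 (mean 0.49 ± 0.36, adjusted p = 0.305).

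Dlg2 read 0.38, -0.11, 0.67 and 1.26 (mean 0.55 ± 0.57, adjusted p = 0.315) and Dlgap3 0.28, -0.04, 0.69 and 1.33 (mean 0.57 ± 0.59, adjusted p = 0.315). The order of the arrays was the same in both genes, with replicate 4, of slide 4, at the top and replicate 2, of slide 3, at the bottom. Dlgap1 had 0.46 ± 0.81 with its brightest probe and 0.55 ± 0.31 with A_52_P443073, the latter above 0 on 4 of 4 arrays (unadjusted p = 0.00807, adjusted p = 0.305). Shank1 (0.17 ± 0.25), Shank3 (0.14 ± 0.51), Dlgap4 (0.11 ± 0.28) and Dlg4 (0.03 ± 0.20) lay nearest 0.

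Of 14 member probes tested at 12 h, 0 were called (0% of all probes), and 5 passed an unadjusted p under 0.05, all higher, where 15.7% of all probes passed in either direction. The methods' t-test called 0. The median over the 9 genes was 0.46, against 0.01 over all tested probes, of which 52.07% were above 0. The median over genes was 0.09 without replicate 4, the array of slide 4, and 0.09 with normexp background correction. The adjusted p-values of all member probes lay at 0.305 or above.

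At 24 h the genes divided again, 5 above 0 and 4 below. Dlgap2 had the most even ratios of any member at any time of Experiment 1, 0.29, 0.35, 0.20 and 0.25, with a mean of 0.27 ± 0.06 (unadjusted p = 0.0173, adjusted p = 0.377 in limma). Dlg3 was also above 0 on 4 of 4 arrays, at 0.19, 0.39, 0.13 and 0.12. Shank3 by contrast read -0.90 on replicate 1 and 0.35, 0.38 and -0.21 on the others. None of 14 probes was called (0.00555% of all probes), 2 passed an unadjusted p under 0.05 against 11.1% of all probes, and the methods' t-test called 0.

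Differences between times were tested in 1 fit over the 4 groups, and the differences that follow one another share arrays. From 3 h to 6 h all 9 genes had a negative difference (median -0.24), of which 0 passed (0% of all probes) and 1 member probe, Shank1 A_55_P2062187 (-0.73), had an unadjusted p under 0.05, against 4.23% of all probes. From 6 h to 12 h all 9 had a positive difference, with a median of 0.71. Dlgap3 differed by 0.96 (SE 0.43, adjusted p = 0.348), Dlgap2 by 0.81 (SE 0.30), Shank3 by 0.77 (SE 0.34) and Dlg3 by 0.59 (SE 0.25). These 4 genes had unadjusted p-values of 0.0153 to 0.0389, where 14.2% of all probes were under 0.05, and 0 members passed the adjusted test (0.00592% of all probes). From 12 h to 24 h all 9 had a negative difference, 0 passed (0% of all probes), and 0 had an unadjusted p under 0.05 (1.19% of all probes).

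Slides 3, 4, 5 and 6 each hold arrays of both 6 h and 12 h, which allows the difference to be read within a slide. On slide 4 all 9 genes were higher at 12 h, by a median of 1.74, with Dlgap3 2.66 and Dlgap1 2.58 higher. On slide 3 the median was 0.30 (8 of 9 genes higher) and on slide 6 it was 0.36 (7 of 9). On slide 5 it was -0.05, with 2 of 9 genes higher. Leaving out the 6 h arrays of slide 5 made 7 of the 9 genes pass, together with 4758 probes in all.

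HI alone left the scaffold genes close to control at 3 h. Dlg2 had log2 ratios of HI to control of 0.05, 0.34 and 0.53 (mean 0.30 ± 0.24, adjusted p = 0.113 in limma) and Dlgap3 of 0.05, 0.36 and 0.36 (mean 0.26 ± 0.18, adjusted p = 0.107). Shank1 was above 0 on 3 of 3 arrays as well, at 0.04, 0.51 and 0.36. In each of the 3 genes replicate 1 was the lowest array and close to 0. Dlg3 (-0.00 ± 0.12) and Dlgap4 (-0.00 ± 0.11) had means at 0. Of 15 member probes 0 were called, while 3.79% of all tested probes were, and 4 passed an unadjusted p under 0.05, a share of the probes below the 36.1% over all probes. The methods' t-test called 0.

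At 12 h after HI, Dlgap1 and Dlg2 had the largest ratios. Dlgap1 read 1.18, 0.74 and 0.43, all above the highest 3 h array (0.31), with a mean of 0.78 ± 0.37 (SE 0.17, unadjusted p = 0.00542, adjusted p = 0.086 in limma). Its probe A_52_P443073 read 0.71, 0.99 and 0.18, whereas A_55_P1959728 read 0.63, -0.17 and -0.38. Dlg2 read 1.13, 0.68 and 0.44, with a mean of 0.75 ± 0.35 (SE 0.17, adjusted p = 0.0867). Its probe A_55_P2072238 ran from -0.24 through 0.33 to 1.26 (mean 0.45 ± 0.76, adjusted p = 0.356 in limma).

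With the brightest probes, the changes of Dlgap1 and Dlg2 were over 1.5-fold and missed the adjusted threshold. Dlgap3 read 0.94, 0.53 and 0.05 (mean 0.51 ± 0.45) and Shank3 0.81, 0.27 and -0.03 (mean 0.35 ± 0.43). The Dlgap3 probe A_55_P1990179 ran from -0.58 through 0.18 to 0.98 (mean 0.19 ± 0.78). Dlg4 went the other way, at -0.10, -0.37 and -0.61 (mean -0.36 ± 0.25, adjusted p = 0.182), the only gene of the 9 with a mean below 0. Replicate 1 was the highest array in all 9 genes, Dlg4 included, and in its absence the mean of Dlg4 is further from 0 and those of the others are nearer to it.

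Of 15 member probes at 12 h after HI, 0 were called, against 0.0106% of all probes, and 4 passed an unadjusted p under 0.05, all higher, against 27.5%. The methods' t-test called 0. Without replicate 3, the lowest array for 8 of the 9 genes, 4 of the 9 were called, among them Dlgap1 (0.96), Dlg2 (0.91) and Dlgap3 (0.74), together with 3268 probes in all. With other background handling Dlg2 was called as well (0.67 by normexp, 0.70 without correction), and without correction Dlgap1 (0.61). In all, 374 probes were called by normexp and 542 without correction, against 2 as reported. The median over the 9 genes was 0.35, and that over all tested probes 0.00. Without replicate 1 the median over genes was 0.0951, with Dlgap2 at -0.13, and 0 genes were called, and without replicate 3 it was 0.54. Between 3 h and 12 h after HI, Dlgap1 differed by 0.69 (SE 0.23, adjusted p = 0.217) and Dlg2 by 0.45 (SE 0.21), and 0 members passed (0.0378% of all probes). At an unadjusted p under 0.05 there were 2 member probes, both of Dlgap1, against 17.7% of all probes. Slide 8 holds arrays of both times, and there the difference had a median of 0.60 with all 9 genes higher at 12 h.

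**Figure D3:**
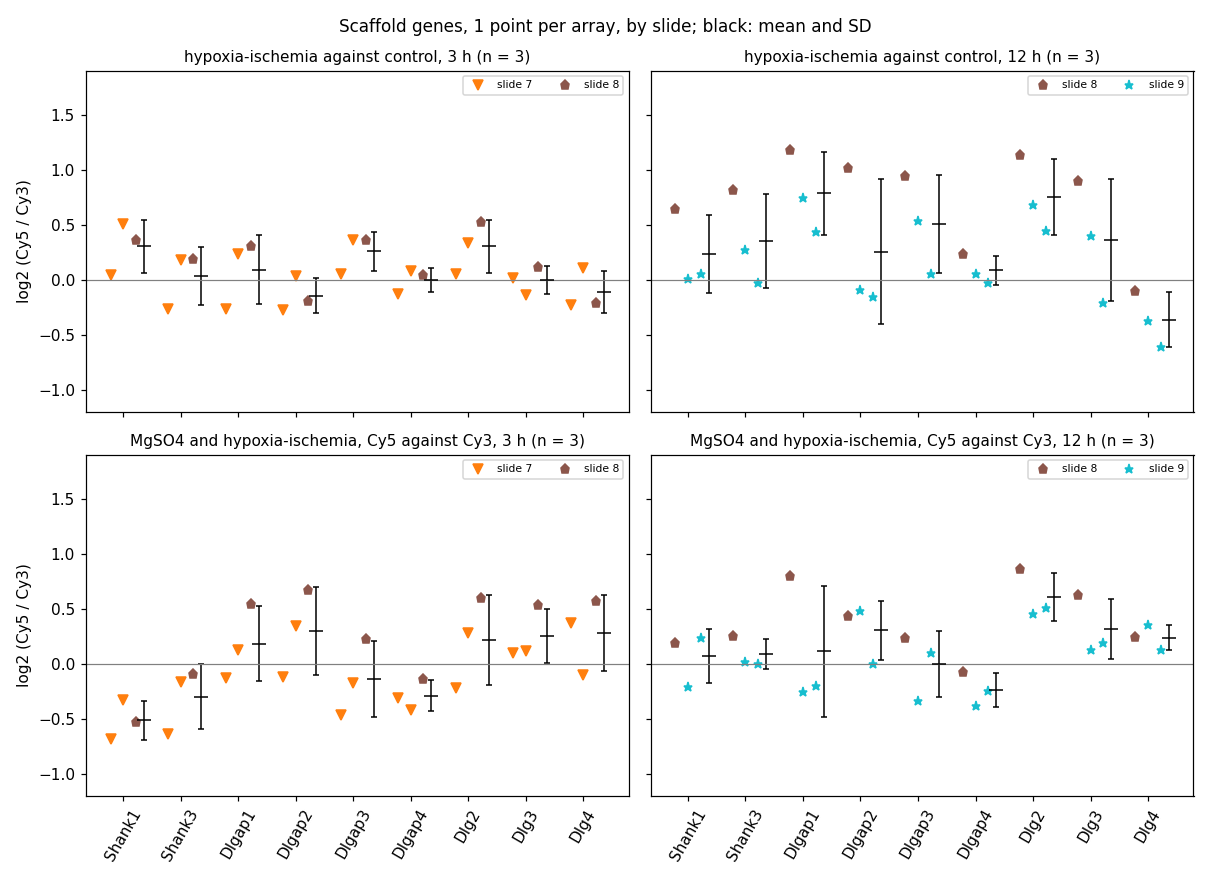
Log2 ratio of Cy5 to Cy3 for the 9 measured scaffold genes (brightest probe) in Experiment 3 (HI against control) and Experiment 2 (MgSO4 and HI, by channel), at 3 h and 12 h. Points are arrays, coloured by slide, and black bars are the mean ± SD (n = 3). Dlgap1 and Dlg2 at 12 h after HI have all 3 arrays at 0.43 or above, and Shank1 at 3 h in Experiment 2 has all 3 at -0.33 or below.

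In Experiment 2 the answer depended on which probe of a gene was read. At 3 h, Dlgap3 probe A_55_P1990179 had log2 ratios of Cy5 to Cy3 of 0.93, 1.26 and 0.85, and was called with a mean of 1.01 ± 0.21 (SE 0.12, adjusted p = 0.0105 in limma). The brightest probe of the same gene, A_52_P138806, read -0.46, -0.17 and 0.22 on the same arrays (mean -0.14 ± 0.35, adjusted p = 0.583). Dlg2 probe A_55_P2072238 read 0.50, 1.05 and 1.20, and was called with a mean of 0.91 ± 0.37 (SE 0.16, adjusted p = 0.0227).

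The brightest Dlg2 probe read -0.22, 0.28 and 0.59 (mean 0.22 ± 0.41). In both genes the called probe was above the other on all 3 arrays, and for Dlgap3 the probes did not overlap. These 2 were the probes called among 15 member probes, against 7.62% of all tested probes. At an unadjusted p under 0.05 there were 5 of 15, 2 higher and 3 lower in Cy5, against 30.2% of all probes. With the brightest probe, 0 of the 9 genes were called, and 0 by the methods' t-test, which the dimmer Dlgap3 probe passed without adjustment. The Dlgap3 call held with background handled by normexp (0.70) and without background correction (0.82), whereas the Dlg2 call was lost in both (0.28 and 0.40) and without the filter on dim probes. In 1 fit over all 31 arrays and under the methods' t-test with adjustment both calls were lost.

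The same probes stood apart at 12 h. Dlgap3 A_55_P1990179 had a mean of 0.96 ± 0.41 (adjusted p = 0.083 in limma) where the brightest probe had -0.00 ± 0.30, and Dlg2 A_55_P2072238 had 1.06 ± 0.43 (adjusted p = 0.0829) where the brightest had 0.61 ± 0.22 (adjusted p = 0.0846). Over the 6 arrays of Experiment 2 the Dlgap3 probes differed by 0.41 to 1.47, and over the other 25 arrays by -0.63 to 0.61, with 1 of the 25 reaching the lowest value of Experiment 2. For Dlg2 the difference was 0.20 to 0.76 in Experiment 2 and -1.37 to 0.86 elsewhere, with 2 of 25 arrays reaching the lowest value of Experiment 2. These 2 arrays were of 12 h and 24 h of MgSO4, where A_55_P2072238 was too dim to be tested, so the range elsewhere includes readings near background. Over all 31 arrays the 2 probes correlated at r = 0.734 for Dlgap3 and 0.752 for Dlg2. Which transcripts each probe reads was not tested here.

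**Figure D4:**
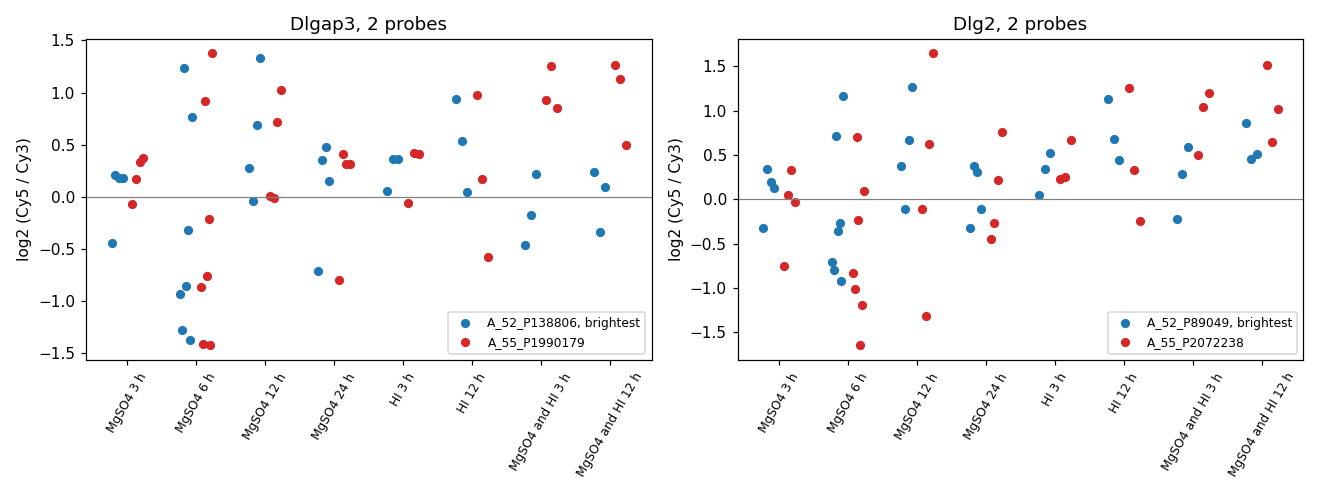
Log2 ratio of Cy5 to Cy3 of the 2 probes of Dlgap3 and of Dlg2, by group, 1 point per array. In the 6 arrays of Experiment 2 the dimmer Dlgap3 probe is 0.41 to 1.47 above the brightest probe, and in the other 25 arrays the distance is -0.63 to 0.61.

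Shank1 was the member lowest in Cy5 at 3 h in Experiment 2. Its brightest probe read -0.68, -0.33 and -0.53, all below 0, with a mean of -0.52 ± 0.18 (SE 0.11), which passed the adjusted threshold (limma, adjusted p = 0.0408) and was under 1.5-fold. A second probe, A_55_P1994550, read -0.68, -0.29 and -0.29 (adjusted p = 0.0817), and the remaining one, A_55_P2062187, -0.37, 0.21 and -0.03. At 12 h the brightest probe was back near 0 (0.07 ± 0.25), and the difference between times was 0.59 (SE 0.17, unadjusted p = 0.00967, adjusted p = 0.999). Dlgap4 was lower in Cy5 on 3 of 3 arrays at both times, with means of -0.29 ± 0.14 (adjusted p = 0.135) and -0.24 ± 0.15 (adjusted p = 0.23), neither of which passed.

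At 12 h, 0 of 15 member probes were called in Experiment 2 (0% of all probes), and 3 passed an unadjusted p under 0.05, against 26.6% of all probes. The methods' t-test called 1 member, Dlg2, without adjustment and 0 with it, and Dlg2 was also called with normexp (0.65) and without background correction (0.66). Among all probes, 328 were called with normexp, 418 without background correction and 546 by the methods' test without adjustment, against 0 as reported. Between the times 0 members passed (0% of all probes), with 1 member probe, of Shank1, at an unadjusted p under 0.05, against 4.09% of all probes. The Cy3 pools of Experiment 2 were also set against the Cy3 control pools of Experiment 3, each array scaled to its 75th percentile. At 3 h, 0 members were called (0.292% of all probes) and the smallest p was that of Shank1 (0.35 higher, unadjusted p = 0.0227, adjusted p = 0.299 in limma), with 13.1% of all probes under 0.05. At 12 h, 0 were called (0% of all probes) and the smallest was Dlgap1 (0.51 higher, unadjusted p = 0.0289, adjusted p = 0.353), with 13.4% of all probes under 0.05.

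Across the 31 arrays the scaffold genes varied together. The 36 pairs among the 9 genes correlated at r = 0.077 to 0.935, with a median of 0.74. Shank3 with Dlgap3 (0.935) and with Dlg2 (0.927) stood at the top, and Dlg4 with Shank1 (0.077) at the bottom. Dlg4, the best known scaffold of mature excitatory synapses, was in 3 of the 4 lowest pairs. All points share arrays, and the genes on an array share its 2 pools and its dye normalization.

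Among 13100 genes measured on all 31 arrays, the genes most like each member were found by Pearson correlation. Those of Shank3 were Jph4 (r = 0.955), Arhgap33 (0.95) and Jph3 (0.949), where the Jph genes code for junctophilins that join the plasma membrane to the endoplasmic reticulum. Those of Dlgap3 were Git1 (0.978), Slc29a4 (0.977) and Syn1 (0.976), the last a protein of synaptic vesicles. Dlg2 was most like Clec16a (0.974), Dlg3 like Rab6b (0.961), Dlgap1 like Lzts2 (0.943), Dlgap2 like Tmem131l (0.924) and Dlgap4 like Rnf26 (0.921). The closest genes to Dlg4 and Shank1 were less close, Fads2 (0.876) and Spata2 (0.837).

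Other proteins of the postsynaptic density were followed through a list of 30 genes, of which 29 had a named probe. In Experiment 1, 0 of the 26 or 27 genes tested were called by limma at any time, and 1 of 27, 5 of 26, 8 of 27 and 1 of 26 had an unadjusted p under 0.05 at the successive times, where the shares over all probes were 9.02%, 13.2%, 15.7% and 11.1%. At 6 h, where the 9 scaffold genes were below 0, the listed genes stood 13 above and 13 below with a median of 0.00. At 12 h 21 of 27 were above 0 with a median of 0.28, and the 8 with an unadjusted p under 0.05 were all higher.

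After HI at 3 h, 1 of 27 was called, where 3.79% of all probes were. This was Arc, an immediate early gene of excitatory synapses, at log2 ratios of 1.62, 1.81 and 1.21 (mean 1.55, SE 0.13, adjusted p = 0.0124 in limma). At an unadjusted p under 0.05 there were 9 higher and 2 lower, against 36.1% of all probes. At 12 h after HI 0 of 26 were called (0.0106% of all probes), 3 having an unadjusted p under 0.05 higher and 1 lower, against 27.5% of all probes. In Experiment 2 at 3 h, 2 of 28 were called higher in Cy5, Ddn (dendrin; mean 1.06, adjusted p = 0.0141) and Dlg1, the remaining gene of the Dlg family (0.78, 0.58 and 0.42, mean 0.59, adjusted p = 0.0296), where 7.62% of all probes were called in either direction, and at 12 h 0 of 27 were called.

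Proteins of inhibitory synapses served as the counterpart, with 12 of 12 genes measured. In Experiment 1 and after HI, 0 of the 12 were called by limma at any time, with 0 to 2 genes at an unadjusted p under 0.05 in Experiment 1 (9.02% to 15.7% of all probes), 3 at 3 h (36.1%) and 6 at 12 h after HI (27.5%). In Experiment 2 at 3 h, 1 of 12 was called, where 7.62% of all probes were. This was Gabrg3, a subunit of the GABA A receptor, lower in Cy5 (-0.74, -0.85 and -0.72, mean -0.77, adjusted p = 0.0119 in limma). At 12 h 0 were called (0% of all probes). At 6 h of Experiment 1 the median over the 12 genes was -0.06 with 4 above 0, and at 12 h it was 0.19 with 9 above 0.

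Marker genes of cell types and regions moved with the scaffold genes from array to array. The median ratio of the 9 scaffold genes on an array correlated with that of 6 oligodendrocyte lineage markers (Pearson r = 0.923, Spearman rho = 0.901, n = 31 arrays), of 4 cerebral cortex markers (0.901 and 0.91) and of 6 neuron markers (0.86 and 0.844), and with the medians of the other excitatory (0.903 and 0.841) and the inhibitory postsynaptic genes (0.752 and 0.815). Markers of endothelium (0.705 and 0.676), astrocytes (0.646 and 0.59) and thalamus (0.581 and 0.64) moved with it too. Microglia markers moved against it (-0.621 and -0.592), and the Pearson r was 0.173 for striatum, 0.002 for choroid plexus and -0.209 for erythroid markers. The median of all tested probes on the array moved with it as well (0.581 and 0.703).

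At 6 h the scaffold median per array ranged from -0.80 to 0.62, the oligodendrocyte lineage median from -0.73 to 0.55, the cerebral cortex median from -0.38 to 0.49 and the neuron median from -0.47 to 0.30. The endothelium median ranged from -0.51 to 0.63, that of choroid plexus from -0.44 to 0.85 and that of erythroid cells from -0.53 to 0.15. For thalamus it was -0.08 to 0.53, for astrocytes -0.32 to 0.22, for microglia -0.24 to 0.24 and for striatum -0.20 to 0.11. At 12 h of Experiment 1 the scaffold median ranged from -0.11 to 0.88 and the cerebral cortex median from -0.22 to 0.96, with replicate 2 lowest in both. On these arrays the erythroid median lay below 0 throughout (-0.56 to -0.12) and the thalamus median above 0 (0.06 to 0.68). The medians of the other cell types and regions lay on both sides of 0. At 12 h after HI the scaffold median ran from -0.03 to 0.90 and the oligodendrocyte lineage median from 0.24 to 0.57, the cerebral cortex median from 0.17 to 0.88, that of endothelium from 0.08 to 0.57, of choroid plexus from 0.06 to 0.77, of astrocytes from 0.07 to 0.26, of erythroid cells from 0.04 to 0.57 and of thalamus from 0.25 to 0.28. The microglia median lay below 0 on all 3 of these arrays (-0.29 to -0.11), while those of neurons (-0.21 to 0.27) and striatum (-0.11 to 0.13) lay on both sides of 0. Within a list the markers were mixed at 12 h after HI. By their means, 4 microglia markers were lower and 2 higher, 5 oligodendrocyte lineage markers higher and 1 lower, and 4 neuron markers higher and 2 lower. In Experiment 2 the scaffold median ranged from -0.22 to 0.54 at 3 h and from 0.02 to 0.25 at 12 h. All 6 oligodendrocyte lineage, 6 neuron, 6 microglia and 4 cerebral cortex markers passed the background filter in every group. Their part in the results for the scaffold genes was not tested.

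**Figure D5:**
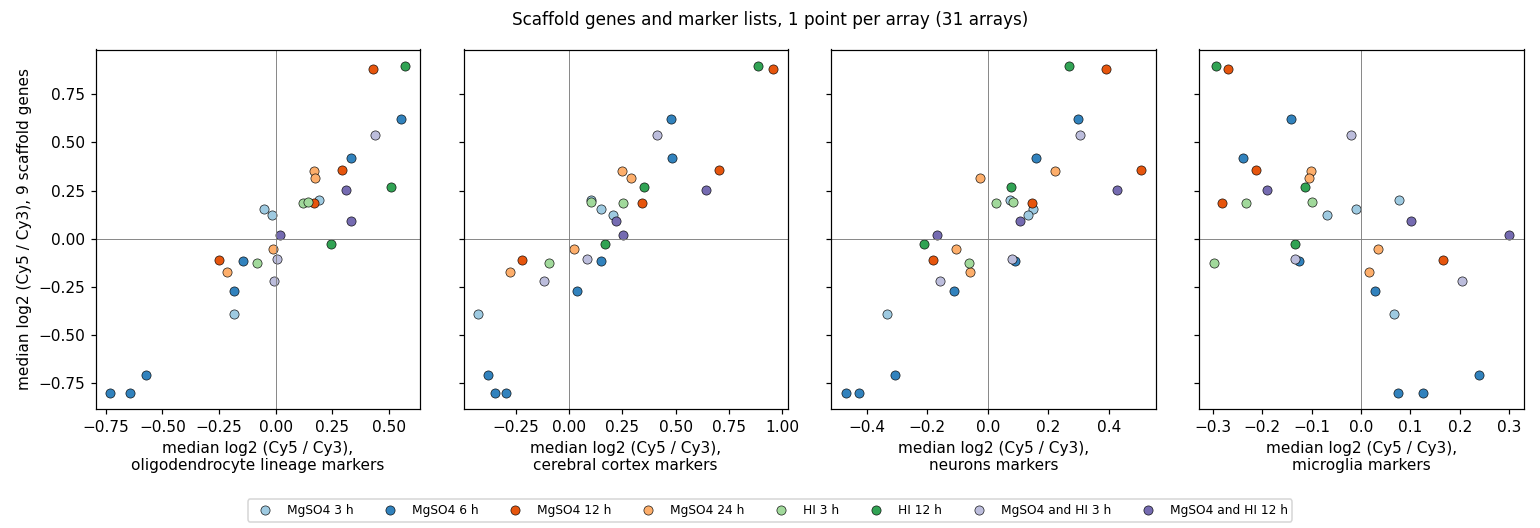
Median log2 ratio of Cy5 to Cy3 over the 9 scaffold genes (vertical axis) against the median over markers of the oligodendrocyte lineage, the cerebral cortex, neurons and microglia (horizontal axes), 1 point per array, 31 arrays coloured by group. The points rise from lower left to upper right in the first 3 panels (r = 0.923, 0.901 and 0.86) and fall in the panel for microglia (r = -0.621).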

How the data were processed

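Gene expression was measured on 31 two-channel arrays of pooled forebrain RNA. Per the file headers and the methods, the authors extracted the scans with Agilent Feature Extraction 10.5.1.1, which made the deposited processed intensity of each channel (background-subtracted, spatially detrended, dye-normalized by linear and LOWESS scaling). The deposited spot and background median intensities were not corrected. The authors' series table holds the log10 ratio of Cy5 to Cy3 and was used as an alternative. There are no counts, and the number of arrays limits the precision.

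Here the log2 ratio was computed, flagged spots were left out and spots of a probe averaged. RefSeq accessions named 27427 of 39429 probes (69.56%) with 1 symbol and 12002 with none, and 26345 probes remained after Rik symbols. Each group was tested against 0 with limma 3.58.1 (R 4.3.3, statmod 1.5.0), adjusted over all tested probes. Between times and between Cy3 pools, differences were contrasts in limma. Tables and plots used Python 3.11.15, pandas 2.3.3, numpy 2.4.6 and matplotlib 3.10.9. The group fits against 0 were tested on simulated ratios with the spreads of these data. The members and lists were chosen with earlier results of these data known. All 10 members are named, and from other lists the genes that were called. Same-numbered Cy3 pools at 3 h, which share a slide, correlated at r = 0.174, 0.349 and 0.397, and replicate 1 matched another number better. At 12 h replicate 2 did so (r = -0.150). The ratios of Experiments 2 and 3 matched best by number for all replicates, at 3 h (0.328, 0.250 and 0.333) and at 12 h (0.462, 0.068 and 0.376). Between the times that were contrasted, the own number was not the best match throughout. Alternatives covered background correction, centring, filters, slides, probes, tests and each replicate left out. Coordinates are of GRCm38.p6, from RefSeq, and were not used with the files, whose design annotation is mm9.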

Additional observations from a re-analysis of the deposited data

Results flagged for a closer look

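A single array stood apart from its group, by Dixon's test, for 3 of 58 combinations of a member probe and a group of at least 4 arrays, and chance flags about 1 in 20. They were Shank1 A_55_P1994550 at 12 h of MgSO4, where replicate 3 read 1.38, Dlgap3 A_55_P1990179 at 24 h, where replicate 1 read -0.79, and Dlgap3 A_52_P138806 at 3 h, where replicate 1 read -0.44. The other 2 Shank1 probes did not share the first value (0.14 and -0.15), while the other Dlgap3 probe shared the direction of the second (-0.71).

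Among probes that were tested at both times, in 2 cases every array of one time lay above 0 and every array of another on the opposite side. Shank1 A_55_P2062187 was above 0 on 4 of 4 arrays at 3 h of MgSO4 and below 0 on 4 of 4 at 24 h, a difference of -0.53 that was not tested. Shank3 in Experiment 2 was below 0 in Cy5 on 3 of 3 arrays at 3 h and above 0 on 3 of 3 at 12 h, a difference of 0.39 (unadjusted p = 0.0623, limma adjusted p = 0.999). The 12 h values ran from 0.0003 through a median of 0.02 to 0.25, so the switch of sign rests on values close to 0.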

How the results depend on the processing

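Over 430 counts of called scaffold genes and medians over them, an alternative left the count within 1.5 times or the median within 1 SD between arrays, and in 14 it did not. At 6 h of MgSO4, 0 scaffold genes were called, and 1 (Shank3) in 1 fit over all 31 arrays (254 probes in all). There were 5 without the 2 arrays of slide 5 and 6 with the 3 arrays that match the published means. At 12 h after HI the count of 0 became 1 with normexp (374 probes in all), 2 without background correction (542), and 0 to 4 when 1 replicate was left out. In Experiment 2, 0 at 3 h became 1 (Shank1) with no fold threshold (2234 probes in all). It became 2 where the probes of a gene were averaged and the gene counted as called through any of its probes. These 2 were Dlgap3 and Dlg2, through the dimmer probes called above, and the averages themselves were not tested. At 12 h, 0 became 1 (Dlg2) with normexp (328 probes in all), without background correction (418) and with the methods' t-test without adjustment (546). The median of 0.11 there became 0.24 with the mean of probes, and 0.0114 to 0.2693 with 1 replicate left out. For 12 h against 6 h, 0 became 7 without the 6 h arrays of slide 5. The medians counted as unmoved still ranged widely over the alternatives, from -0.03 to 0.18 (0.03 as reported), -0.81 to -0.10 (-0.25), 0.09 to 0.59 (0.46) and -0.03 to 0.19 (0.07) at the successive times of MgSO4, from -0.02 to 0.19 (0.03) and 0.10 to 0.54 (0.35) at 3 h and 12 h after HI and from -0.00 to 0.25 (0.18) at 3 h in Experiment 2. The cause was not tested. The mean of Shank1 A_55_P1994550 at 24 h, 0.27, turned to -0.0103 with normexp. The settings that leave out slide 5 were chosen after seeing the data.

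With the replicate number as a block, 0 scaffold genes passed in any difference between times (medians -0.28, 0.75, -0.23, 0.32 and 0.06 for 6 h against 3 h, 12 h against 6 h, 24 h against 12 h, HI and Experiment 2), and the probes that passed in all fell from 1 to 0 for 12 h against 6 h and from 7 to 0 for HI. For the Cy3 pools at 3 h the replicate block gave 0 scaffold genes (median -0.01) and 236 probes in all against 54, and at 12 h 0 genes (median 0.13). With the slide as a random block at 6 h of MgSO4, 0 genes were called (median -0.24) and 0 of all probes against 5. The consensus correlation within a slide was 0.62 there (7 arrays on 4 slides), and -0.16 at 3 h of MgSO4 (4 arrays on 2 slides). Over all alternatives, the probes called in all ranged from 0 to 112 (0 as reported), 0 to 2779 (5), 0 to 214 (0) and 0 to 74 (1) at the successive times of MgSO4, 0 to 2708 (717) and 0 to 3268 (2) at 3 h and 12 h after HI, and 0 to 2294 (1468) and 0 to 894 (0) in Experiment 2. The slide could not be fitted as a random block in groups of 3 arrays or of 1 array per slide, nor as a block for 6 h against 3 h, and was not run there. The number of arrays per group and the dim probes of Shank2, Shank3 and Dlg2 limit what could be detected.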
